A study of Mus musculus with 10 samples.

Results

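This account describes 9 mouse genes used as markers of lung monocytes and interstitial macrophages: Csf1r, Cx3cr1, Ly6c2, Ms4a7, Ms4a6c, Folr2, Lyve1, Mrc1 and Cd163. They were chosen by name, as the rows whose Ensembl identifier carries one of these symbols in the GENCODE M21 annotation. All 9 were found among the 45786 genes of the tables, and all 9 passed the filter on low counts that left 15625 genes for testing. The RNA came from whole-lung cell suspensions of C57BL/6J mice, an inbred laboratory strain. Irradiated mice had received 12.5 Gy of γ-rays over the whole thorax, and age-matched control mice 0 Gy. The times were 24 hours and 1, 4, 12 and 32 weeks after exposure, each with 1 irradiated and 1 control library holding the RNA of 3 mice. No pool was repeated at any time, so the spread between mice of 1 pool cannot be seen. A suspension holds the cells that dissociation of the lung released. In RNA taken from all these cells together, fewer cells of a type and less RNA per cell cannot be told apart.

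Monocytes are made in the bone marrow and circulate in the blood. Classical monocytes carry much Ly6C on their surface and enter injured tissue, while nonclassical monocytes carry little Ly6C and much of the fractalkine receptor CX3CR1 and patrol vessel walls. Interstitial macrophages lie in the lung tissue around vessels, airways and nerves, apart from the alveolar macrophages of the air spaces, and many are replaced from monocytes. One described subset carries LYVE1, FOLR2, CD163 and much mannose receptor MRC1 and lies near vessels. Several of the 9 genes are not limited to these cells: alveolar macrophages also express Mrc1, lymphatic vessels also express Lyve1, and some dendritic cells express Cx3cr1 and Csf1r.

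Libraries held an estimated 8666030 to 17404300 fragments before a scaling present in the deposited counts. Lung, blood vessel and leukocyte markers were present in every pool: the surfactant gene Sftpc lay between 4967 and 43777 CPM (counts scaled to a common library size), the endothelial gene Pecam1 between 119 and 220.0 CPM, and the leukocyte gene Ptprc between 610.0 and 1088 CPM. Markers of other cells moved with irradiation at 24 hours, where 9 of 12 proliferation genes and 3 of 10 B cell genes fell and none of either list rose. Haemoglobin transcripts took 0.804% to 6.67% of the counts. The part of these differences in the values of the 9 genes was not tested.

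Per length, the genes differed widely in level. In FPKM, a count scaled to gene length and library size, the median of the 5 control pools was 105 for Ly6c2, 90.4 for Csf1r, 55.6 for Ms4a6c, 32.2 for Mrc1, 17.8 for Lyve1, 15.7 for Ms4a7, 14.1 for Cx3cr1, 13.8 for Folr2 and 3.48 for Cd163. The control ranges of neighbours in this order overlapped except between Ms4a6c and Mrc1, between Mrc1 and Lyve1, and between Folr2 and Cd163. Cd163 was thus the lowest in every control pool, from 1.76 to 4.36 FPKM, and its values rest on the fewest fragments per base. All further levels are CPM after TMM scaling, a normalisation to the bulk of the genes, and are compared within a gene.

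**Figure D1:**
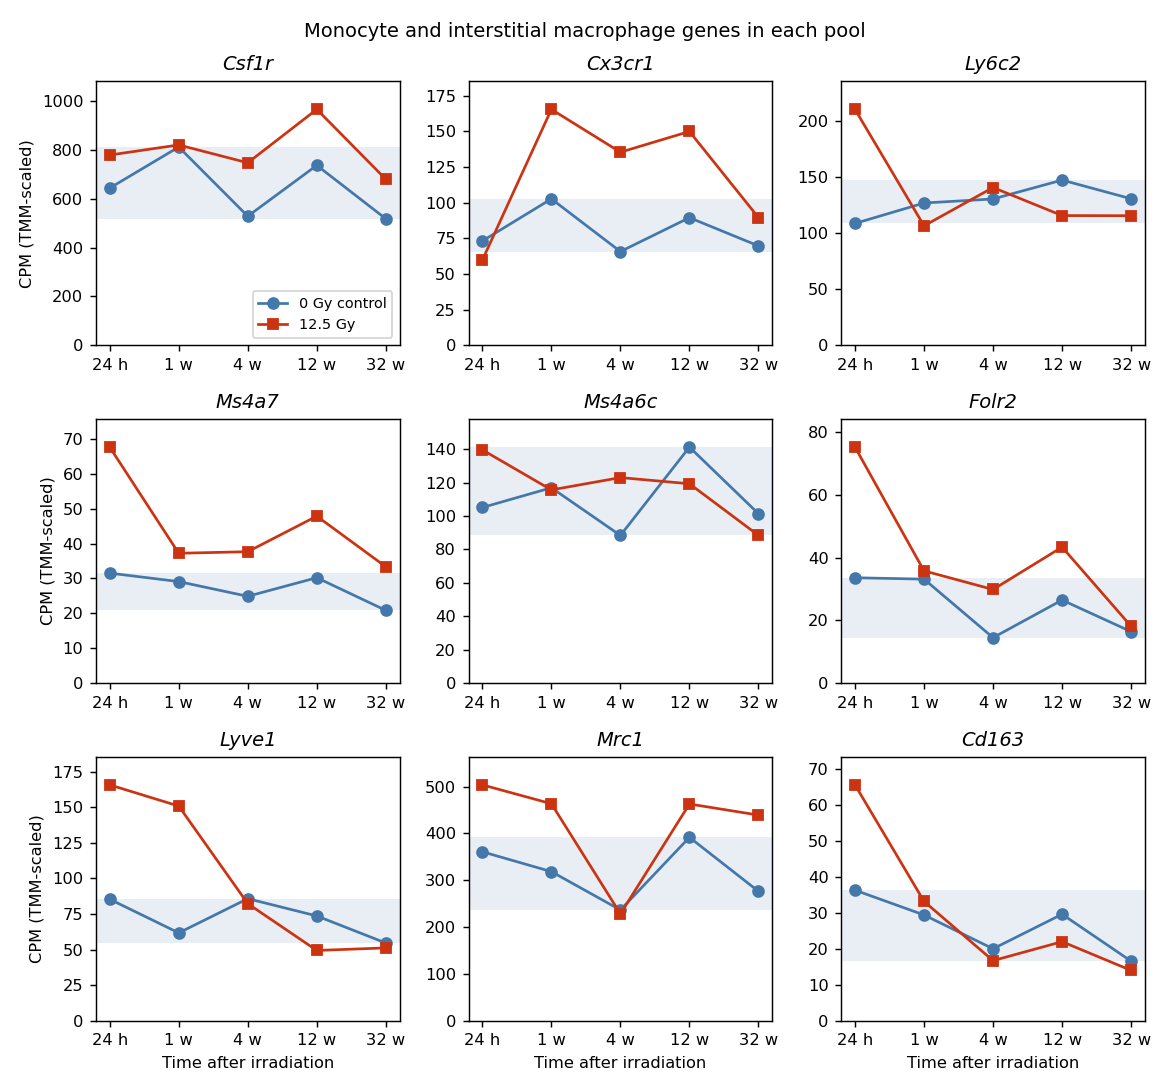
Level of each of the 9 genes (vertical axis, CPM after TMM scaling, from 0) at the 5 times (horizontal axis). Blue circles are control pools, red squares irradiated pools, 1 pool of 3 mice per point, and the blue band is the range of the 5 controls. Ms4a7 lay above the band in all 5 irradiated pools, Cx3cr1 lay below it at 24 hours and above it at 1, 4 and 12 weeks, and Lyve1 lay above it at 24 hours and 1 week and below it at 12 and 32 weeks (inside it in FPKM).

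Csf1r encodes the receptor of the cytokines CSF1 and IL-34, on which monocytes and macrophages depend. It lies at chr18:61100598-61132149 on the plus strand of GRCm38. In control pools it stood at 643 CPM at 24 hours, 811 at 1 week, 528 at 4 weeks, 736 at 12 weeks and 518 at 32 weeks. The irradiated pools of the same times held 778, 820, 747, 965 and 679 CPM. The groups overlapped: the irradiated pool exceeded every control only at 1 and 12 weeks (in FPKM at 12 weeks only), and the 1-week pair differed by 1.01-fold. Irradiated pools were higher in 5 of 5 pairs, a pattern seen in 6.75% of the genes tested (5.73% were lower in all 5, among them 0 of the 9). The 1-week pair turned lower, however, under total count scaling and in FPKM. With time as a block the log2 change over the 5 times was 0.31 ± 0.10 (SE, 5 pairs), which did not pass the threshold (edgeR adjusted p = 0.326). The end of Csf1r overlaps Hmgxb3 on the other strand, and 16.4% of its 50-base stretches also lie in Hmgxb3 transcripts, which stood between 23.7 and 44.2 CPM.

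The ligands were low. Csf1 lay between 20.98 and 24.8 CPM in the controls and at 37.4, 27.8, 20.6, 19.99 and 15.5 CPM in the irradiated pools in time order. The irradiated level was thus above all controls at 24 hours and 1 week and below all of them at 4, 12 and 32 weeks, in FPKM at 32 weeks only. At 24 hours the log2 difference from the controls was 0.71 ± 0.21 (SE), short of the threshold (edgeR adjusted p = 0.204). Il34 lay at 8.33 CPM at 24 hours after irradiation and between 3.29 and 5.12 CPM in the controls (adjusted p = 0.317).

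Cx3cr1 encodes the receptor of fractalkine, which tethers monocytes to endothelium. Its gene model spans chr9:119901616-120069879 on the minus strand of GRCm38 and overlaps several other genes, though only 1.06% of its 50-base stretches occur in transcripts of other genes. Control pools held 73.1 CPM at 24 hours, 102.6 at 1 week, 65.7 at 4 weeks, 89.5 at 12 weeks and 69.7 at 32 weeks. Irradiated pools held 59.8 CPM at 24 hours, then 165, 135, 149.9 and 89.5 CPM at the later times. It was the only one of the 9 genes to lie below all controls at 24 hours, and at 1, 4 and 12 weeks it lay above all of them. Against the matched control it was 1.22 times lower at 24 hours and 1.61, 2.06, 1.67 and 1.28 times higher at the later times. Against the 5 controls the log2 difference was −0.42 ± 0.25 at 24 hours, 1.05 ± 0.23 at 1 week, 0.76 ± 0.23 at 4 weeks and 0.90 ± 0.23 at 12 weeks (SE), and none passed (edgeR adjusted p = 0.577, 0.190, 0.510 and 0.241). The 1-week and 12-week differences passed with DESeq2 (adjusted p = 0.0107 and 0.0405). The ligand gene Cx3cl1 lay between 23.6 and 36.2 CPM in the controls and at 40.4, 36.2, 27.9, 22.7 and 24.5 CPM after irradiation, above all controls at 24 hours and below all of them at 12 weeks. In FPKM all 5 irradiated pools of Cx3cl1 lay inside the control range of 4.26 to 10.6.

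Set against Csf1r within the same pool, Cx3cr1 left the control range in both directions. The ratio of their expected counts lay between 0.114 and 0.135 in the 5 controls. It was 0.0768 in the irradiated pool at 24 hours, 0.202 at 1 week, 0.181 at 4 weeks, 0.155 at 12 weeks and 0.132 at 32 weeks. The 24-hour value was below every control, the next 3 were above every control, and the 32-week value lay inside their range.

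Ly6c2 encodes the Ly6C antigen by which classical monocytes are recognised. It lies at chr15:75108158-75111970 on the minus strand of GRCm38, near its close copy Ly6c1, which endothelium expresses. The 2 coding sequences, both 396 bases in GENCODE M21, differ at 9 bases. Their first 270 bases are shown because fragments of one can match the other, and capitals mark the 7 differing bases in this stretch.
Ly6c2: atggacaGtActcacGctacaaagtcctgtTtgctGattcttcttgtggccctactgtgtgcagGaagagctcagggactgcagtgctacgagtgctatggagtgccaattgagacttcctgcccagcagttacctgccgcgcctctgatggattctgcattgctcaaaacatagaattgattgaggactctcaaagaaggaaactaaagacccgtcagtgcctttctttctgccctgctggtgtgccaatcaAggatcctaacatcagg
Ly6c1: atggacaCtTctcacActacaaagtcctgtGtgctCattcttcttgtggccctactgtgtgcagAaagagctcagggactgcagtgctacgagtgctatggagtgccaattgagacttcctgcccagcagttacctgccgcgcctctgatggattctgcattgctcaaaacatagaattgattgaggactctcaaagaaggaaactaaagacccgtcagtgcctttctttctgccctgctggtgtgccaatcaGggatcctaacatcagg
Over the full length they are 97.7% identical, and 31.2% of the 50-base stretches of Ly6c2 transcripts occur in other genes, nearly all in Ly6c1. The split of fragments between the copies is therefore uncertain.

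Ly6c2 stood at 109 CPM at 24 hours, 127 at 1 week, 131 at 4 weeks, 148 at 12 weeks and 131 at 32 weeks in the controls. After irradiation it stood at 211 CPM at 24 hours, and at 107, 141, 116 and 116 CPM at the later times. The 24-hour pool was 1.93 times its matched control and above all controls, and the 1-week pool was below all of them. The log2 difference from the 5 controls at 24 hours was 0.71 ± 0.18 (SE), which edgeR did not call (adjusted p = 0.120) and DESeq2 did (adjusted p = 0.0273). Ly6c1 had another course, at 198, 186, 146, 113 and 126 CPM after irradiation against 102 to 176 CPM in the controls. Its 24-hour log2 difference was 0.50 ± 0.27 (SE, edgeR adjusted p = 0.517). The ratio of Ly6c2 to Cx3cr1 counts was 3.53 at 24 hours after irradiation and 1.24 to 1.99 in the controls, then 0.645, 1.04, 0.773 and 1.29.

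Ms4a7 and Ms4a6c belong to the MS4A family of membrane proteins, whose members are expressed in different blood cells, among them monocytes, macrophages and B cells. Ms4a7 lies at chr19:11321039-11336146 (minus strand) and Ms4a6c at chr19:11469366-11482192 (plus strand) of GRCm38. Ms4a7 held 31.5 CPM at 24 hours, 29.1 at 1 week, 24.9 at 4 weeks, 30.2 at 12 weeks and 20.8 at 32 weeks in the controls. The irradiated pools held 67.7, 37.2, 37.7, 47.9 and 33.4 CPM. Every irradiated pool lay above every control, and Ms4a7 was the only one of the 9 genes whose groups did not overlap, which held for 1.17% of all genes tested. Matched folds were 2.14 at 24 hours and 1.28, 1.51, 1.58 and 1.60 at the later times.

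At 24 hours Ms4a7 rose by a log2 difference of 1.31 ± 0.23 (SE, 1 pool against 5 controls; edgeR adjusted p = 0.0306). This call was lost without the 1-week control (adjusted p = 0.0764) and with limma on log2(FPKM + 1) (0.0711), where the differences were 1.33 and 1.36. Over the 5 times its log2 change was 0.68 ± 0.13 (SE, 5 pairs), with the smallest p of the 9 genes but an edgeR adjusted p of 0.169. DESeq2 called it with the same design (adjusted p = 0.00759). Transcripts of Ms4a7 share 0 of their 1778 50-base stretches with another gene.

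Ms4a6c did not show this pattern. It stood at 105, 117, 88.4, 141 and 101 CPM in the controls in time order and at 139.7, 116, 123, 119 and 88.5 CPM after irradiation, always inside the range of the controls. The log2 change of Ms4a6c over the 5 times was 0.09 ± 0.13 (SE, edgeR adjusted p = 0.842). Of its 50-base stretches 56.9% also occur in other genes, mainly in BE692007, a noncoding gene on the other strand at 10.5 to 18.1 CPM, so some of its fragments may have been counted elsewhere.

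In the MS4A family 12 of 19 listed genes passed the filter. At 24 hours Ms4a7 was the 1 that rose, and 0 fell; DESeq2 called 2 up and 1 down. Ms4a6d, a close relative of Ms4a6c, stood at 148, 81.2, 71.0, 109 and 113 CPM after irradiation against 49.9 to 97.5 CPM in the controls. Its 24-hour log2 difference was 1.04 ± 0.28 (SE, edgeR adjusted p = 0.151), and it was higher in 5 of 5 pairs. Ms4a6b stayed within its control range of 86.0 to 151 CPM in all 5 irradiated pools. In FPKM it was above the highest control, at 53.8, at 24 hours (55.9) and 12 weeks (61.4).

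Folr2 encodes folate receptor beta, a surface receptor of resident tissue macrophages. It lies at chr7:101839988-101857194 on the minus strand of GRCm38. The controls held 33.6 CPM at 24 hours, 33.2 at 1 week, 14.5 at 4 weeks, 26.5 at 12 weeks and 16.4 at 32 weeks. The irradiated pools held 75.3, 35.8, 29.9, 43.4 and 18.1 CPM. The irradiated pool was higher in 5 of 5 pairs, by 2.24-fold at 24 hours, 2.05-fold at 4 weeks and 1.10-fold at 32 weeks, and above all controls at 24 hours, 1 week and 12 weeks. The 32-week pair turned lower under total count scaling. Its 24-hour log2 difference of 1.60 ± 0.38 (SE) had the largest size among the 9 genes but also a wide error, and edgeR did not call it (adjusted p = 0.0955), while DESeq2 did (0.00519). The antisense gene Gm10602 shares 46.7% of the 50-base stretches of Folr2 but stood between 0.173 and 1.07 CPM. In the same pools the ratio of Folr2 to Cx3cr1 counts was 1.26 at 24 hours after irradiation, 0.220 to 0.459 in the controls, and 0.202 to 0.289 at the later irradiated times.

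Over the 10 pools, Ms4a7 and Folr2 were the pair of the 9 genes that varied most alike (Pearson r of log2 CPM 0.88 over 10 pools, which share 2 treatments and 5 times). RefSeq promoters of build GRCm38.p6 were matched for 7 of the 9 genes, with 10 start sites. The 250 bases before a start were searched on both strands for GAGGAA, a letter string of PU.1 sites, for the interferon-stimulated response element, and for TGANTCA, the string of AP-1 sites. TGANTCA was found before 1 start each of Ms4a7 and Folr2 and before no other of the 10 starts, and 6.73% of the 32536 promoter windows of that length hold it. These 2 windows are shown because their genes varied together, and that of Cx3cr1 because it alone fell outside the controls in the opposite direction at 24 hours. Capitals mark TGANTCA, which lies 74 bases before the Ms4a7 start and 67 bases before the Folr2 start. All 3 are read on the minus strand, from chr19:11334696-11334945, chr7:101845332-101845581 and chr9:120068297-120068546.
Ms4a7: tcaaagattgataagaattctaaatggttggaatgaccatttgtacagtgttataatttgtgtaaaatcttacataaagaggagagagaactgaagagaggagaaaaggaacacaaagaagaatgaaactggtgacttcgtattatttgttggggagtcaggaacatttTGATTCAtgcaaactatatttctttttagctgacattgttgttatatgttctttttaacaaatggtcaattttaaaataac
Folr2: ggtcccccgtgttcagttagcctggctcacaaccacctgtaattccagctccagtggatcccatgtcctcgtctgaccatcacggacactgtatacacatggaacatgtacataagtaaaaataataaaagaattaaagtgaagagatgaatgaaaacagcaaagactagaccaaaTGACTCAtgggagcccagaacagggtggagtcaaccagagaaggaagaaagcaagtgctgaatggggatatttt
Cx3cr1: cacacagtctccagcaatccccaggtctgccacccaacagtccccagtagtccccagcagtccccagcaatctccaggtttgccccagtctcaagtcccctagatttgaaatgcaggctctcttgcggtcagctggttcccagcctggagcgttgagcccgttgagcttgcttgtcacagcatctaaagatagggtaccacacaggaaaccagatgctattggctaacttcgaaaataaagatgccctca
GAGGAA was found before Ly6c2 and, at 3 places, before Mrc1, and 23.4% of all windows hold it. The interferon-stimulated response element was found in 0 of the 10 windows and in 2.98% of all windows. The other start of Ms4a7 and the other start of Folr2 hold none of these motifs. A match of letters says nothing on its own about binding.

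Lyve1 encodes a receptor for hyaluronan, a sugar polymer of the matrix, on lymphatic endothelium and on macrophages near vessels. It lies at chr7:110850607-110863239 on the minus strand of GRCm38. Control pools held 85.4 CPM at 24 hours, 61.8 at 1 week, 85.8 at 4 weeks, 73.7 at 12 weeks and 54.7 at 32 weeks. After irradiation it stood at 166 CPM at 24 hours and 151 at 1 week, then at 82.3, 49.4 and 51.2 CPM. The first 2 irradiated pools were above all controls, the 4-week pool was inside their range, and the last 2 were below all of them. In FPKM the last 2 were inside the control range, and 4 of 5 pairs were higher against 2 of 5 in CPM. Lyve1 rose at 24 hours by a log2 difference of 1.20 ± 0.23 (SE, edgeR adjusted p = 0.0409). The call was lost without the 1-week control (adjusted p = 0.1004), without the 12-week control (0.0837), under total count scaling (0.0821) and with limma on log2(FPKM + 1) (0.0857), where the log2 differences were 1.15, 1.20, 1.07 and 1.29. At 1 week the difference was 1.06 ± 0.23 (SE) and did not pass (edgeR adjusted p = 0.190), though it did with DESeq2 (0.0110).

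Markers of the vessels were set beside Lyve1. The 8 tested genes of lymphatic endothelium summed to 161, 191 and 129.6 CPM at 24 hours, 1 week and 4 weeks after irradiation and to 92.2 and 99.1 CPM at 12 and 32 weeks, against 111 to 166 CPM in the controls. Their sum was thus inside the controls at 24 hours, when Lyve1 was called, above them at 1 week, and below them at the last 2 times. Against the controls 4 of the 8 were higher at 24 hours, with a median log2 difference of 0.07, and 7 of 8 at 1 week, with 0.49; edgeR called 0 at both times, with 0 at an unadjusted p under 0.05, and DESeq2 0. Of the full list of 10 genes, Ccl21a did not pass the filter: it was at 0 in 7 of 10 pools and at 130.4, 157 and 121 CPM in the irradiated pools of 24 hours and 1 week and the 4-week control. It alone brings the irradiated sum of the 10 to 291 CPM at 24 hours and 349 at 1 week. The matched controls held 145 and 129 CPM, so that both ratios were larger than those of Lyve1. Ccl21a was set aside after its values were seen. Prox1, a transcription factor that defines lymphatic endothelium, stood at 3.04 and 4.86 CPM at the first 2 irradiated times, inside its control range of 2.04 to 6.68 CPM.

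The 12 genes of blood endothelium summed to 2129 CPM at 24 hours after irradiation, inside the control range of 1195 to 2164 CPM, to 2273 CPM at 1 week, above it, and to 1068 CPM at 12 weeks, below it. Set against the 5 controls, all 12 had a positive log2 difference at 1 week and all 12 a negative one at 12 weeks. These are signs from 1 irradiated pool at each time, and single genes could lie inside the control range, as Vwf did at both times. Abca3, the surfactant lipid transporter gene of alveolar type 2 cells and the second closest gene to Lyve1 over the 10 pools (Pearson r 0.97), stood at 522, 509, 324, 160 and 168 CPM after irradiation against 187 to 266 CPM in the controls. Their part in the course of Lyve1 was not tested.

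**Figure D2:**
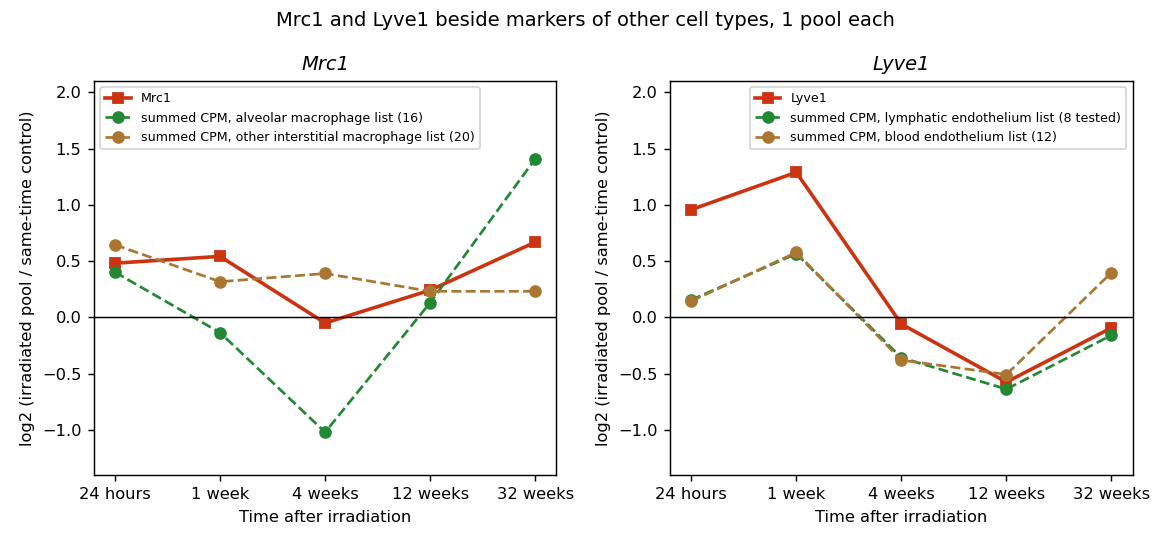
Log2 ratio of each irradiated pool to its same-time control (vertical axis) at the 5 times (horizontal axis), 1 pool against 1 pool. Red squares are Mrc1 (left) and Lyve1 (right), and dashed lines are the summed CPM of marker lists, alveolar macrophage and other interstitial macrophage genes on the left, lymphatic (the 8 tested) and blood endothelium genes on the right. Lyve1 was 1.94 and 2.44 times its control at 24 hours and 1 week, a larger ratio than that of either list shown. With Ccl21a included, the ratio of the lymphatic list was larger than that of Lyve1 at both times. Mrc1 and the alveolar macrophage list both had their lowest ratio at 4 weeks and their highest at 32 weeks.

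Mrc1 encodes the mannose receptor, which takes up glycoproteins and microbes. It lies at chr2:14229392-14332057 on the plus strand of GRCm38 and shares 0 of its 50-base stretches with other genes. The controls held 361 CPM at 24 hours, 319 at 1 week, 237 at 4 weeks, 392 at 12 weeks and 276 at 32 weeks. Irradiated pools held 504, 464, 228, 463 and 439 CPM. The irradiated pools exceeded all controls at every time but 4 weeks, where the level was below all of them. On the FPKM scale the 4-week pool was inside the control range, and Mrc1 was higher in 5 of 5 pairs. Over the 5 times the log2 change was 0.38 ± 0.12 (SE, 5 pairs; edgeR adjusted p = 0.319), and at 24 hours the difference was 0.67 ± 0.24 (adjusted p = 0.297).

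Alveolar macrophage markers were lowest in the same pool as Mrc1. The summed level of 16 of them was 4752 CPM in the 4-week irradiated pool, 11706 to 25911 CPM in the other irradiated pools and 9649 to 18379 CPM in the controls, and none was at 0 in all pools. At 1 week the 2 differed: Mrc1 was above all controls, while the alveolar sum was 11706 CPM against 12867 CPM in its matched control. At 4 weeks 4 of the 16 fell, among them Krt79 with a log2 difference of −3.41 ± 0.31 (SE, edgeR adjusted p = 0.00315), Ear1 with −2.47 ± 0.26 (0.00696) and Siglecf, a lectin of eosinophils and alveolar macrophages, with −2.15 ± 0.27 (0.0262). Another 11 were lower without passing and 1 was higher. The 20 other interstitial macrophage genes summed to 6591 CPM in the same pool, above their control range of 4279 to 5289 CPM. Cbr2 alone held 2732 CPM of this sum, against 1538 to 2403 CPM in the controls. Of the 20 genes 18 were higher than in the matched control. P2ry13, the gene closest to Mrc1 over the 10 pools (Pearson r 0.98), was also lowest in the 4-week irradiated pool, at 19.5 CPM. How much of the Mrc1 level came from alveolar macrophages was not tested.

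Cd163 encodes the scavenger receptor for complexes of haemoglobin and haptoglobin. It lies at chr6:124304656-124330527 on the plus strand of GRCm38. Control pools held 36.3 CPM at 24 hours, 29.4 at 1 week, 20.03 at 4 weeks, 29.6 at 12 weeks and 16.6 at 32 weeks, and irradiated pools 65.6, 33.2, 16.7, 22.0 and 14.0 CPM. Only the 24-hour irradiated pool was above all controls, and the 32-week pool was below all of them, though not in FPKM. Matched folds were 1.80 at 24 hours and 1.13 at 1 week, and the irradiated pool was 1.20, 1.34 and 1.18 times lower at 4, 12 and 32 weeks. The 24-hour log2 difference was 1.31 ± 0.33 (SE) and was not called by edgeR (adjusted p = 0.120) but was by DESeq2 (0.0141). Hmox1, which encodes the enzyme that breaks down haem, stood at 91.0, 69.3, 63.0, 69.5 and 100.1 CPM after irradiation against 40.3 to 62.7 CPM in the controls, so that its groups did not overlap. Its log2 change over the 5 times was 0.60 ± 0.16 (SE, edgeR adjusted p = 0.263), which DESeq2 called (adjusted p = 0.0491).

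**Figure D3:**
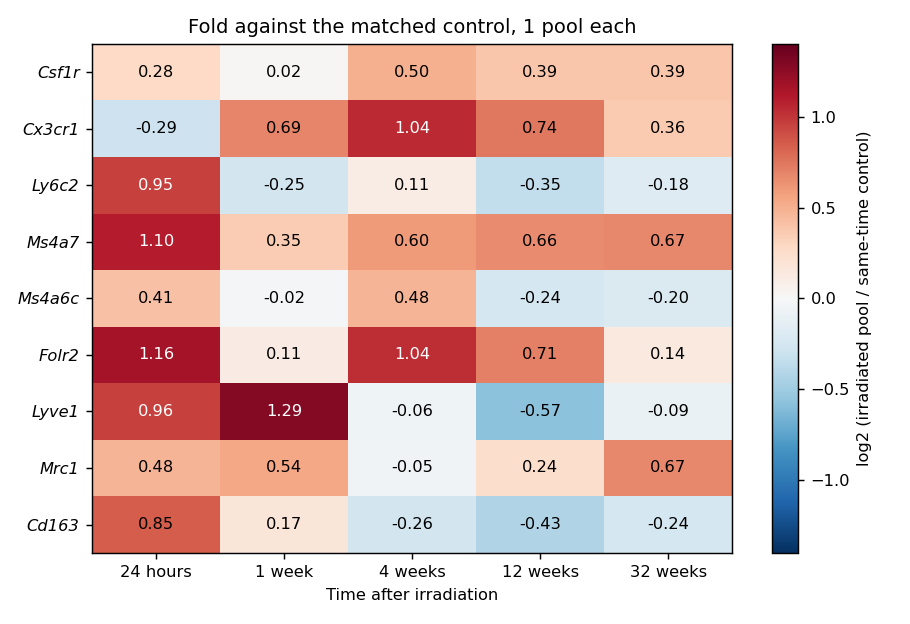
Log2 ratio of the irradiated pool to its same-time control (colour and printed value, red for higher and blue for lower) for the 9 genes (rows) and 5 times (columns), 1 pool against 1 pool with no test. The 24-hour column is positive for 8 of 9 genes, and Ms4a7, Csf1r and Folr2 are positive in all 5 columns, Csf1r and Folr2 in 4 under total count scaling. In FPKM, Csf1r is positive in 4.

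Compared pair by pair, the 9 genes were most often higher at 24 hours. The median matched log2 fold of the 9 was 0.85 at 24 hours, 0.17 at 1 week, 0.48 at 4 weeks, 0.24 at 12 weeks and 0.14 at 32 weeks, while that of all genes tested lay between −0.00414 and 0.03. Against the mean of the 5 controls in place of the matched pool it was 0.46 at 1 week, 0.21 at 4 weeks, 0.57 at 12 weeks and −0.15 at 32 weeks, so that the last turned sign. Over 1.5-fold higher were 5, 2, 3, 3 and 2 of the 9 in time order, beside 9.95%, 15.5%, 10.6%, 13.3% and 17.8% of all genes. None of the 9 was over 1.5-fold lower at any time, beside 11.2%, 9.76%, 9.72%, 14.3% and 17.5% of all genes. The members above 1.5-fold changed with time: Ms4a7, Ly6c2, Folr2, Lyve1 and Cd163 at 24 hours, Cx3cr1 and Lyve1 at 1 week, Ms4a7, Cx3cr1 and Folr2 at both 4 and 12 weeks, and Ms4a7 and Mrc1 at 32 weeks.

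Set against the range of the 5 controls, 6 of the 9 lay above it at 24 hours, 6 at 1 week, 2 at 4 weeks, 5 at 12 weeks and 2 at 32 weeks. The share of all genes was 22.1%, 22.6%, 19.1%, 21.9% and 25.5%, so that the counts at 4 and 32 weeks were at that share. Below the range lay 1, 1, 1, 1 and 2 of the 9, beside 21.2%, 18.8%, 16.8%, 21.5% and 23.3% of all genes. The 5 comparisons share their controls and are not independent.

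The tests called few of these differences. Over the 5 times edgeR called 0 of the 9 genes (0.00% of all genes), with 5 of the 9 at an unadjusted p under 0.05 (11.1% of all genes). These 5 were Ms4a7, Folr2, Mrc1, Csf1r and Cx3cr1, all with a positive estimate (6.62% of all genes). DESeq2 called 1 of the 9, Ms4a7 (1.65% of all genes), and limma on FPKM 0. The estimate was positive for 9 of 9 genes with a median log2 change of 0.31, and 52.5% of all genes were positive, with a median of 0.01. Of these signs, those of Ly6c2 and Cd163 turned without the 24-hour pair (−0.17 and −0.19) and under total count scaling (−0.011 and −0.039), and that of Ms4a6c without the 4-week pair (−0.012).

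**Figure D4:**
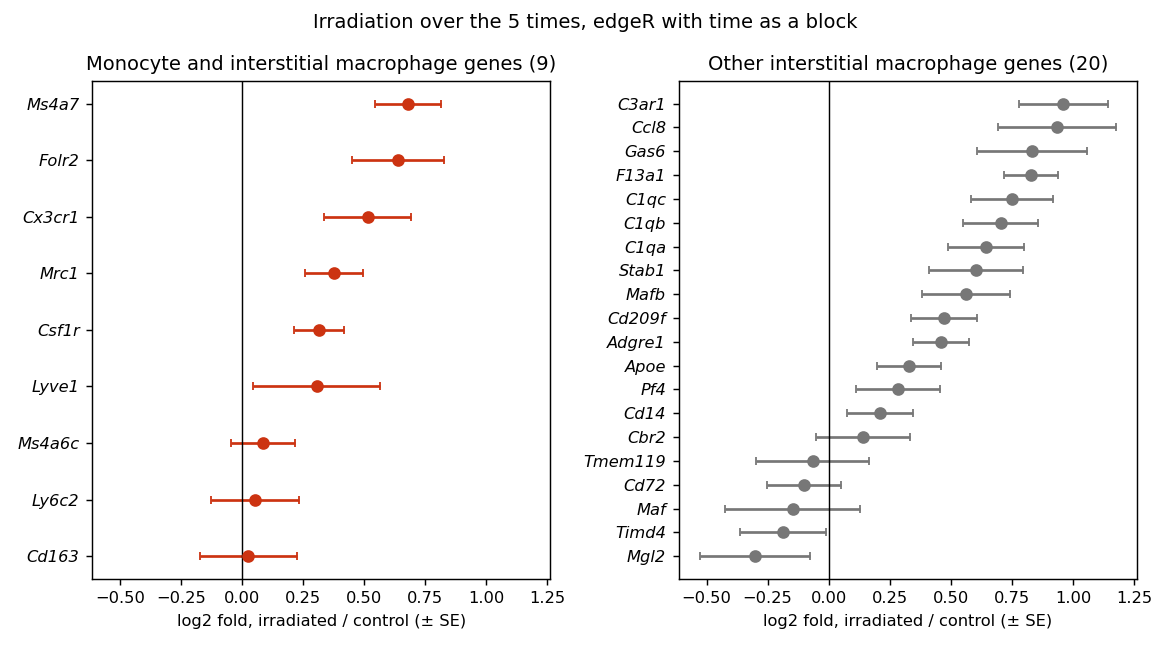
Log2 change with irradiation over the 5 times (horizontal axis, point) with its standard error (bar) from edgeR with time as a block, for the 9 genes (left, red) and 20 other interstitial macrophage genes (right, grey). All 9 points on the left are above 0 (Ly6c2 and Cd163 are below it under total count scaling), with Ms4a7 highest at 0.68, and 15 of 20 on the right are.

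At 24 hours 2 of the 9 genes rose, Ms4a7 and Lyve1, and 0 fell, where 0.602% of all genes were called higher and 0.454% lower, 1.06% in all. The genes called were 94 higher and 71 lower, and under total count scaling 54 and 68. An unadjusted p under 0.05 was reached by 6 of the 9 (11.9% of all genes). DESeq2 called 5, Ms4a7, Lyve1, Folr2, Cd163 and Ly6c2 (3.48%). At 1 week edgeR called 0 (0.0192% of all genes), with 3 at an unadjusted p under 0.05 (9.50%) and 2 called by DESeq2, Cx3cr1 and Lyve1 (1.61%). At 4 weeks it called 0 (0.0576%), with 1 unadjusted, Cx3cr1 (7.20%), and 0 by DESeq2 (0.608%). At 12 weeks it called 0 (0.00%), with 4 unadjusted (10.7%) and 1 by DESeq2, Cx3cr1 (1.52%). At 32 weeks it called 0 (0.826%), with 0 unadjusted (16.4%) and 0 by DESeq2 (5.48%). Limma on FPKM called 0 of the 9 at each of the 5 times.

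The change of the irradiation effect with time was tested as its slope per doubling of days. EdgeR called 0 of the 9 (0.00% of all genes), DESeq2 0 (0.384%), and 3 had an unadjusted p under 0.05 (7.01%): Lyve1 with −0.20 ± 0.06, Cd163 with −0.16 ± 0.05 and Ly6c2 with −0.13 ± 0.05 log2 per doubling (SE; edgeR adjusted p = 0.679, 0.679 and 0.683). The slope of Cx3cr1 was 0.09 ± 0.06 (adjusted p = 0.794). For the slope over time in the control pools, with the spread taken from the fit of all 10 pools, edgeR called 0 of the 9 (0.00% of all genes), DESeq2 0 (0.166%), and 1, Cd163, had an unadjusted p under 0.05 (4.31% of all genes; slope −0.11 ± 0.05 per doubling, edgeR adjusted p = 0.998).

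Other genes of the same cells were taken from lists. Of 20 other interstitial macrophage genes, 6 rose at 24 hours and 0 fell. The 3 of smallest p were Gas6, a bridge between dying cells and their receptors, with a log2 difference of 1.97 ± 0.17 (SE, edgeR adjusted p = 0.000834), Pf4, a platelet and macrophage chemokine, with 1.64 ± 0.26 (0.0183), and the complement receptor gene C3ar1 with 1.39 ± 0.23 (0.0231). In all 18 of 20 had a positive log2 difference from the controls, with a median of 0.95. Gas6 stood at 894, 557, 357, 298 and 206 CPM after irradiation and at 201 to 264 CPM in the controls, above all controls until 12 weeks. Over the 5 times edgeR called 0 of the 20, with 12 at an unadjusted p under 0.05, and DESeq2 called 8. F13a1, a clotting factor gene of macrophages and monocytes, had the smallest p, with a log2 change of 0.83 ± 0.11 (SE, edgeR adjusted p = 0.150).

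Of 12 other classical monocyte genes, 1 rose at 24 hours and 0 fell: Fcgr1, the high-affinity IgG receptor, with a log2 difference of 1.62 ± 0.21 (SE, edgeR adjusted p = 0.00781). It stood at 72.4 CPM then and between 19.1 and 27.3 CPM in the controls. Itgam, an integrin of monocytes and neutrophils, followed with 1.016 ± 0.22 (adjusted p = 0.0664). The list summed to 2787 to 3368 CPM in the controls and 2973 to 3475 CPM in the irradiated pools, ranges that overlap.

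Of 12 nonclassical monocyte genes edgeR called 0 at each of the 5 times, with 3, 1, 1, 2 and 6 at an unadjusted p under 0.05 in time order and 0, 0, 1, 0 and 1 by DESeq2. In time order 8, 4, 6, 4 and 10 of the 12 had a negative log2 difference from the controls. The median was −0.25 at 24 hours and −0.45 at 32 weeks. Spn, the sialophorin gene, had the smallest p there (−1.05 ± 0.28 SE, edgeR adjusted p = 0.103). The sum of the 12 was 1465 to 1637 CPM in the controls and 1255 to 1762 CPM after irradiation. It was lowest in the 4-week irradiated pool, where Ear2 held 141 CPM, against 373 CPM in the matched control. Of 14 tested ligands and partners of the 9 genes edgeR called 0 at each of the 5 times, with 5, 0, 1, 1 and 4 unadjusted, and DESeq2 called 3 at 32 weeks and 0 at the other times.

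Markers of other leukocytes at 24 hours are given beside these rises. Of 12 neutrophil genes 1 rose, Mmp9 (log2 difference 0.91 ± 0.18 SE, edgeR adjusted p = 0.0428), and the list summed to 1308 CPM against 710.0 to 974 CPM in the controls. Of 12 dendritic cell genes 1 fell, Xcr1, with a log2 difference of −2.43 ± 0.45 (SE, edgeR adjusted p = 0.0378), and the list summed to 322 CPM against 425 to 682 CPM. Of 14 NK and T cell genes 2 fell, Cd3d and Cd3g, and of 16 alveolar macrophage genes 1 rose, Marco (1.52 ± 0.26 SE, adjusted p = 0.0270). Of the 14 NK and T cell genes, 8 had a negative log2 difference from the controls at 24 hours and 6 a positive one. The NK cell gene Ncr1 stood at 42.0 CPM, against 17.5 to 40.0 CPM in the controls. None of the genes in these lists was at 0 in all pools. Since CPM are shares of a library, fewer transcripts of one cell type raise the share of the others, and this was not tested.

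**Figure D5:**
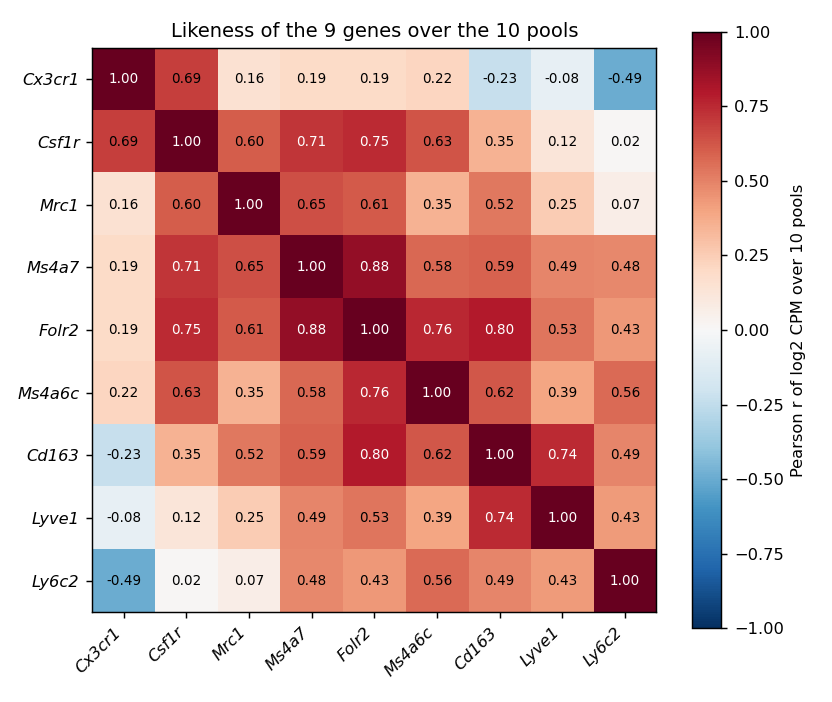
Pearson r of log2 CPM over the 10 pools (colour and printed value) for each pair of the 9 genes. Ms4a7 and Folr2 were the most alike at 0.88, and Cx3cr1 and Ly6c2 the least at −0.49.

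The 9 genes did not vary as 1 block. Their pairwise Pearson r of log2 CPM over the 10 pools ran from −0.49 (Cx3cr1 with Ly6c2) to 0.88, as a description of pools that share treatments and times. Folr2 was also like Cd163 (0.80), Ms4a6c (0.76) and Csf1r (0.75), while Cx3cr1 was below 0 with Lyve1 (−0.08) and Cd163 (−0.23). Among 13835 genes with a mean log2 CPM of at least 1, those most like Ms4a7 were Lacc1 (r 0.98), Ifi44 (0.94) and Fcgr1 (0.94). Lacc1 stood at 30.8 CPM at 24 hours after irradiation and at 12.3 to 16.9 CPM at the later times, against 7.60 to 11.6 CPM in the controls. The closest genes to Csf1r were Lonrf3, Stat6 and Tspan14 (0.94 to 0.95), to Folr2 Rab3il1 and Glipr2 (0.93 to 0.96), to Cx3cr1 Nfe2, Slc25a46 and Cdh23 (0.92 to 0.94), and to Cd163 C1ra, Nkain4 and Cyp2e1 (0.93 to 0.94). Lgr4 and Nedd4 stood beside Abca3 for Lyve1 (0.97 to 0.98), and Sirpa and Cd44 beside P2ry13 for Mrc1 (0.97 to 0.98). For Ly6c2 they were 2610507I01Rik, Oasl1 and Alg14 (0.89 to 0.92), and for Ms4a6c Pcdhga6, Grpel2 and Pot1b (0.92 to 0.95).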

How the data were processed

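The submitters' processing notes list GRCm38.p4 as build and, as tools, STAR 2.4.2a, Trimmomatic 0.32, Cuffdiff and Cufflinks 2.0.2. What each tool did, and with which annotation, is not given in the sources used here. Per the labels' protocols, libraries were made with Clontech ultralow and Illumina NexteraXT chemistry, which does not mark the strand. The authors deposited 1 table of expected counts per gene and 1 of FPKM values. Of low expected counts, 52.8% to 71.3% per library lay within 0.05 of a whole multiple of 1 step (0.578 to 1.39); totals divided by the step are the fragments stated, an estimate. Symbols came from GENCODE M21 for 45223 of 45786 identifiers; the other 563 took at most 0.135% of a library's counts. Columns of no sample numbered 0.

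Expected counts were rounded, scaled by TMM (factors 0.933 to 1.09 from all 10 pools) and filtered with filterByExpr (minimum count 10). Tests were 2-sided edgeR 4.0.16 quasi-likelihood tests with robust fitting in R 4.3.3, with Benjamini-Hochberg adjustment over 15625 genes and a threshold of 0.05. They were run on simulated data with a smaller spread between pools than these data have, so that check does not cover the spread seen here. Irradiation over the 5 times had time as a block (4 residual degrees of freedom). Each irradiated pool was also set against the 5 controls (4), so that the spread is that of controls of several ages, taken to hold for the single irradiated pool too. Time slopes used log2 days in all 10 pools (3 for the change of the effect, 6 for the slope in the controls). Matched folds (log2 CPM, prior count 2) set 1 pool beside 1 pool, untested. P-values measure the spread between pools, in which biological and technical spread are not separated. Alternatives were DESeq2 1.42.0, limma 3.58.1 on log2(FPKM + 1) and log2(FPKM + 0.1), other scalings, no filter, and leaving out pools. Genes named were the 9 members, up to 3 of smallest p per other list and comparison, 3 of highest Pearson r per member (1 of them is not reported here), and Csf1, Il34, Cx3cl1, Ly6c1, Ms4a6b and Ms4a6d; Prox1 and Ccl21a were named after their values were seen. Members and lists were chosen with earlier results of these data known.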

Additional observations from a re-analysis of the deposited data

Results flagged for a closer look

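The Mrc1 level of the 4-week irradiated pool, 228 CPM, stood apart from the other 4 irradiated pools, of which the nearest held 439 CPM. The gap was 0.766 of the range of the group, above Dixon's critical value of 0.71 for 5 samples. Of 18 groups tested this was the 1 that stood out, and chance flags about 1 in 20 groups. The 5 pools of a group are of 5 different times, so Dixon's test cannot separate an odd pool from a change with time. The matched control of 4 weeks was also the lowest control, at 237 CPM. The summed alveolar macrophage markers of this pool, 4752 CPM, were below all 9 other pools; their part in the Mrc1 level was not tested.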

How the results depend on the processing

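Depth was estimated and each pool is 1 library, so calls rest on few residual degrees of freedom. Leaving out 1 control leaves 4, and the lone irradiated pool is assumed to vary like them.

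Of the alternative values computed, 750 kept direction and side of the threshold (or, for values without a test, moved within the spread), 14 lost a call, 23 gained one, 52 moved further and 6 reversed. Sign changes of single matched folds are not among these 6. Of 45 matched folds, 7 changed sign on log2(FPKM + 1), 4 against the mean of the 5 controls, 2 under total count scaling and 0 with prior count 0.5. Over the 5 times Ly6c2 reversed to −0.011 and Cd163 to −0.039 under total count scaling. Leaving out 1 pair at a time, Ly6c2 ran from −0.17 (without 24 hours) to 0.16, Cd163 from −0.19 (without 24 hours; −0.015 without 1 week) to 0.14, and Ms4a6c from −0.012 (without 4 weeks) to 0.17. Without the time block, the pairing by time given in the labels, 0 genes and 0 of the 9 were called, as with it.

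DESeq2 called 258 genes over the 5 times, 543 at 24 hours, 252 at 1 week, 95 at 4 weeks, 238 at 12 weeks, 857 at 32 weeks, 60 for the change with time and 26 over time in the controls, and of the 9 members 1, 5, 2, 0, 1, 0, 0 and 0. With no filter the counts were 1, 254, 36, 31, 44 and 336 genes for the first 6 tests and 1 for the change with time. Limma on log2(FPKM + 1) called 101 genes at 24 hours, 16 at 4 weeks, 7 at 12 weeks and 381 at 32 weeks, and on log2(FPKM + 0.1) 17 at 4 weeks and 13 at 12 weeks; both called 0 members at 24 hours. Total count scaling left 1 member at 24 hours, 0 genes at 1 week and 65 at 32 weeks (36 higher, 29 lower), and put the median log2 difference of all genes at −0.14 at 24 hours and −0.11 at 32 weeks (−0.011 and −0.020 with TMM).

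Leaving out 1 pool gave 66 to 169 genes and 0 to 2 members at 24 hours, 0 to 12 genes at 1 week, 5 to 15 at 4 weeks, 0 to 2 at 12 weeks and 8 to 299 at 32 weeks. The lowest values at 24 hours (66 genes, 0 members) and 32 weeks (8) came without the 1-week control, the 299 without the 4-week control. Against the mean of the 5 controls the median log2 fold of the 9 was 0.46 at 1 week, 0.21 at 4 weeks, 0.57 at 12 weeks and −0.15 at 32 weeks, and on log2(FPKM + 1) 0.40 at 32 weeks. The cause of these shifts was not tested.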
